A study of Mus musculus with 11 samples.

Results

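A set of 10 inflammatory and secreted-factor genes was followed in every library: Spp1, Arg1, Cd36, Il1b, Tnf, Nos2, Ptgs2, Clec4e, Thbs1 and Ccl3. They are 10 of the 55487 genes listed in the deposited table, matched by gene name, and each was listed. They were chosen by their measured levels and differences in these same libraries, known from earlier results. The levels and differences are therefore a description, and a p-value beside one places the gene among all genes and does not test the choice.

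The study asked how FGF21 secreted by a tumour acts on tumour-infiltrating CD8+ T cells. The design used MC38 mouse colon carcinoma cells with a control short hairpin (shNC, genotype labelled WT) or a hairpin against Fgf21 (shFgf21, genotype labelled FGF21 Knockdown). Bulk RNA sequencing covered 11 libraries in 4 groups: sorted cells labelled T cell from shNC tumours (3 libraries) and shFgf21 tumours (2), and libraries labelled tumour and MC38 with shNC (3, numbered 1, 2 and 6) and shFgf21 (3, numbered 1, 2 and 3). The labels give no mouse strain, age, time after injection or hairpin sequence. In shFgf21 sorted replicate 2 the genotype label names FGF22 while the title matches its partner. Each sorted library's title joins several numbers, and whether those are pooled animals is not stated. Nothing in the labels says that replicates came from separate animals or cultures, so the spread between them may be technical.

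Totals ran from 14944013 to 19099350 counts per library. A count of 0 allows up to 3 counts, or 0.157 to 0.201 counts per 1000000 counts of the library (CPM), for counting error only. Fgf21 had 0, 2 and 1 counts in shNC tumours 1, 2 and 6 and 0 in the other 8 libraries, so the knockdown could not be checked at this depth. The cell labels did not match the markers well. In the sorted libraries 12 macrophage markers summed to 10630, 12097 and 12982 CPM in shNC replicates 1 to 3 and to 16096 and 17178 CPM in shFgf21 replicates 1 and 2, with none at 0. The 10 T cell markers summed to 278 to 582 CPM in shNC against 310 to 363 CPM in shFgf21 sorted libraries. In the tumour libraries the macrophage markers summed to 14.8 to 30.6 CPM and Ptprc, the leukocyte antigen CD45, was at 0 to 1.002 CPM. Cd3e, a T cell receptor chain, had no counts there, against 31.0 to 65.6 CPM in the sorted libraries.

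Macrophages in tumours take on states that are told apart by what they secrete and what they metabolise. One state, often called Spp1-type, makes the matrix glycoprotein osteopontin (Spp1) together with arginase (Arg1), which breaks arginine down to ornithine and urea, and takes up oxidised lipids through the scavenger receptor CD36, whose ligands include thrombospondin-1 (Thbs1). The classical inflammatory state makes interleukin-1 beta (Il1b), tumour necrosis factor (Tnf), the chemokine CCL3, the inducible nitric oxide synthase (Nos2) and prostaglandin synthase COX-2 (Ptgs2). Clec4e encodes Mincle, a lectin receptor for microbial glycolipids and products of dead cells. Cells other than macrophages can express several of these genes, among them tumour cells, neutrophils and endothelium.

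The start regions show one feature that differs among the genes. RefSeq promoter windows (GRCm38.p6, 250 bases before to 50 bases after the start) were matched for 7 of the 10 genes in 8 entries, with 2 entries for Spp1. Arg1, Nos2 and Thbs1 were not matched. The TATA box letters TATAAA, searched on both strands, occurred in 4 of 8 entries, against 13.6% of 32851 promoters. On the gene's own strand and with the first base 50 to 21 bases before the start, they occurred in Il1b (base -31), Tnf (base -29) and Clec4e (base -29), against 2.32% of all promoters. In Spp1 the match lay at base -211. The 100 bases before the start are shown for these 3 genes and, for contrast, for Spp1, the most abundant of the 10, 5′ to 3′ on the gene's strand with TATAAA in capitals.
Il1b (chr2:129371140-129371239, minus strand): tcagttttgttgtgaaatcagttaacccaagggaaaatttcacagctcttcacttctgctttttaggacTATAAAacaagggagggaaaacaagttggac
Tnf (chr17:35202008-35202107, minus strand): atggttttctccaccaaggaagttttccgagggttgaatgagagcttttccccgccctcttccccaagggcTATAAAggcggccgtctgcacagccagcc
Clec4e (chr6:123289872-123289971, minus strand): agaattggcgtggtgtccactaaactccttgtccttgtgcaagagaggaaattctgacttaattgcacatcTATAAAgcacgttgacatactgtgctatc
Spp1 (chr5:104435011-104435110, plus strand): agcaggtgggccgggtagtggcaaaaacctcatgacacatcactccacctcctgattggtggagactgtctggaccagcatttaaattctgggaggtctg
The AP-1 letters TGANTCA and the NF-kB motif, both strands, were in 0 of 8 entries, against 7.81% and 8.46% of all promoters. The hypoxia response core ACGTG was in 2 of 8 (Ptgs2 and Clec4e), against 19.6%. These are letter matches in short windows and not measured binding sites.

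The 10 genes spanned more than 2 orders of length-scaled level in the sorted shNC libraries. As CPM per kilobase of exons, Spp1 stood highest at 2680 ± 174 (SD, n = 3), followed by Arg1 at 810 ± 190, Ccl3 at 501 ± 17.0 and Tnf at 245 ± 30.5. Ptgs2 (199 ± 13.5) and Il1b (173 ± 61.4) came next with overlapping ranges. Nos2 (67.4 ± 8.76), Thbs1 (66.6 ± 18.4) and Cd36 (33.7 ± 12.7) followed, each overlapping the next, and Clec4e was lowest at 8.45 ± 1.24. In the shFgf21 sorted libraries (n = 2) the order was nearly the same. Spp1 remained highest there at 1478 ± 54.9, Ptgs2 and Tnf changed places with overlapping ranges, and Cd36 (10.3 ± 3.28) overlapped Clec4e (9.79 ± 0.316) at the bottom.

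**Figure D1:**
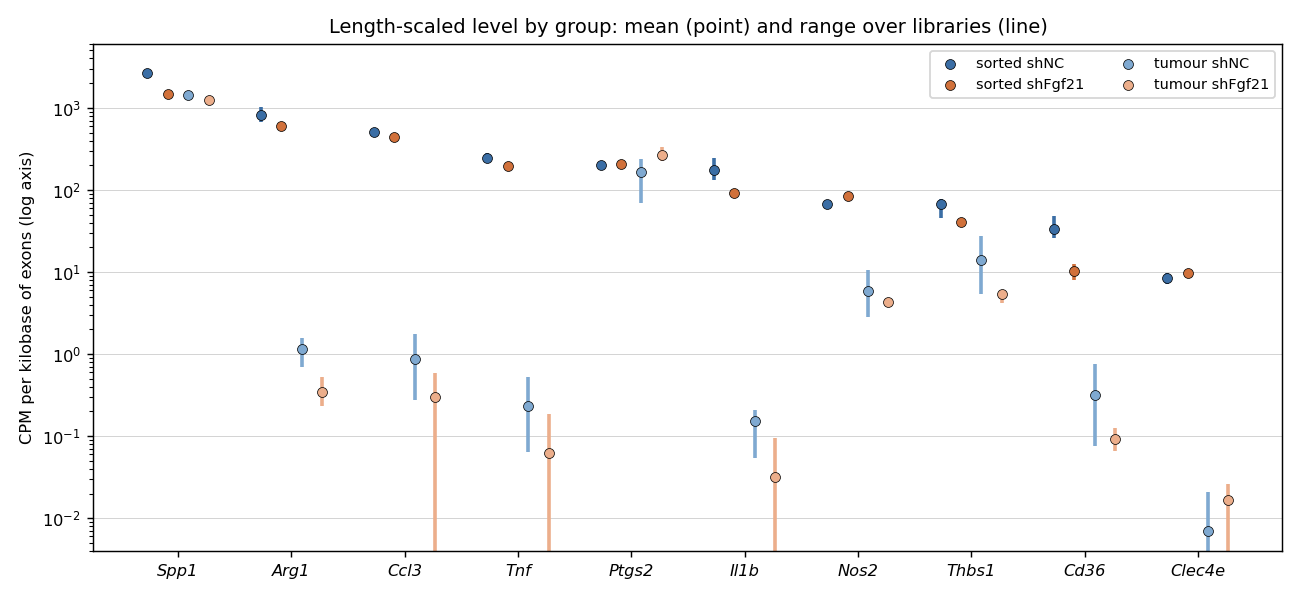
Level of each gene in CPM per kilobase of exons on a log axis, by group, with the mean as a point and the range over the libraries as a line (n = 3, 2, 3 and 3). Lines that run off the bottom include a library with 0 counts. Ptgs2 is of similar height in all 4 groups. Spp1 is abundant in all 4 and highest in sorted shNC, and the other 8 genes sit lower in the tumour groups.

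In the tumour libraries only Spp1 and Ptgs2 approached their sorted levels. Spp1 was at 1434 ± 84.2 CPM per kilobase in shNC tumours and Ptgs2 at 167 ± 88.0 (SD, n = 3 each). Thbs1 (14.2 ± 11.5) and Nos2 (5.90 ± 4.17) followed with overlapping ranges, then Arg1 at 1.15 ± 0.431. The remaining 5 genes had a mean below 1 CPM per kilobase, and all but Clec4e overlapped their neighbours in the order. The label of macrophage genes therefore does not cover where Spp1 and Ptgs2 were found: these transcripts were abundant in libraries whose 12 macrophage markers together took 14.8 to 30.6 CPM. Thbs1 and Nos2 were also counted in those libraries, at 25.7 to 165 CPM and 12.6 to 47.0 CPM. In the sorted libraries, transcripts of Spp1, Ptgs2, Thbs1 and Nos2 from other cells cannot be told apart from those of macrophages. The sorted libraries also held many transcripts of the fibroblast markers Dcn, Lum, Pdgfra, Col1a1 and Col3a1. These summed to 3254 to 4201 CPM in sorted shNC and 3331 to 3737 CPM in sorted shFgf21. In tumours they summed to 6034 to 6862 CPM in shNC and 4517 to 6008 CPM in shFgf21. Which cells these transcripts came from was not tested.

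**Figure D2:**
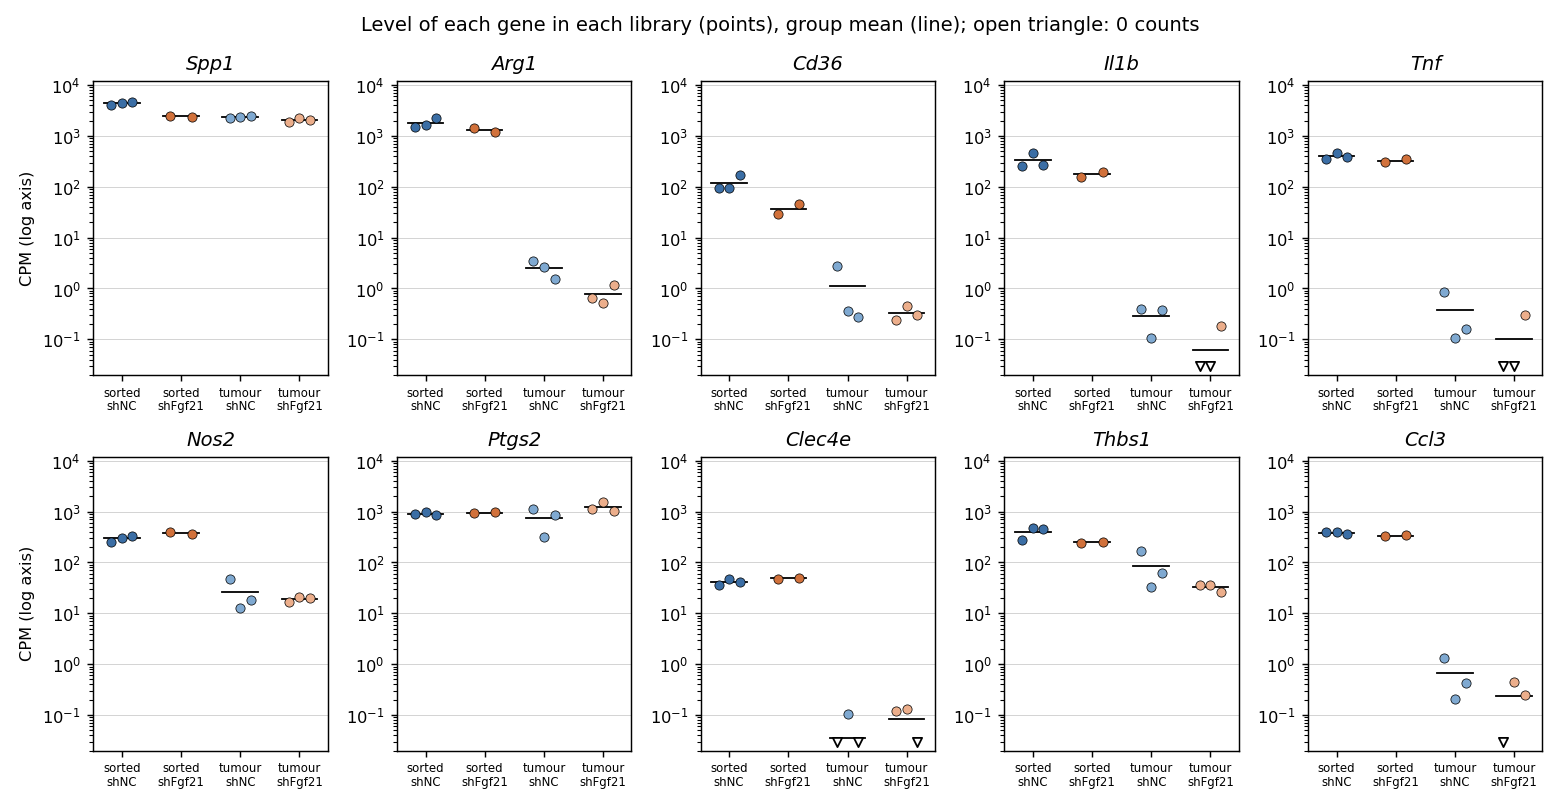
CPM of each of the 10 genes in each of the 11 libraries on a log axis, with the group mean as a line and an open triangle for a library with 0 counts. In the sorted panels Spp1, Cd36 and Il1b sit lower in shFgf21 than in shNC, and Nos2 sits higher.

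Spp1 encodes osteopontin, a secreted ligand of integrins and CD44 (chromosome 5, 104435118 to 104441050, mm10). In sorted shNC replicates 1 to 3 it was at 4103, 4483 and 4664 CPM, and in shFgf21 replicates 1 and 2 at 2499 and 2371 CPM. The groups did not overlap, and the shFgf21 mean was 55.1% of the shNC mean. Fitted by edgeR over all genes, the log2 fold change was -0.81 ± 0.12 (SE), which did not pass (Benjamini-Hochberg adjusted p = 0.082). DESeq2 on the same genes gave -0.80 ± 0.11 with an adjusted p of 3.692e-10, so the call depends on the tool while the size does not. Leaving out each library in turn gave log2 fold changes of -0.87 to -0.77. In the tumours Spp1 was at 2221, 2371 and 2499 CPM in shNC against 1878, 2201 and 2034 CPM in shFgf21. These groups also did not overlap, with a much smaller log2 fold change of -0.19 ± 0.12 (adjusted p = 0.884). The difference between the sorted and the tumour fold change was -0.61 ± 0.16 on the log2 scale and did not pass in edgeR (adjusted p = 0.794), while DESeq2 gave -0.60 ± 0.15 (adjusted p = 0.048). A predicted gene, Gm42793, overlaps 309 bases of Spp1 exons on the same strand and had at most 742 counts in a library. Shorter overlaps, with Il1bos at Il1b (25 bases, at most 26 counts) and Gm29233 at Thbs1 (208 bases, at most 7 counts), were also listed.

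Arg1, the liver-type arginase that macrophages express when alternatively activated (chromosome 10, 24915221 to 24927484), was at 1484, 1648 and 2284 CPM in sorted shNC against 1437 and 1214 CPM in sorted shFgf21. The gap between the groups was narrow in CPM, since the lowest shNC library stood just above the higher shFgf21 library. That gap depends on CPM leaving out the TMM scaling factors of the fits. The log2 fold change was -0.39 ± 0.19 (adjusted p = 0.494) and ran from -0.53 to -0.19 with each library left out. The tumours held few Arg1 counts, 52, 51 and 29 in shNC and 11, 8 and 19 in shFgf21. These did not overlap either, with a log2 fold change of -1.69 ± 0.45 (adjusted p = 0.555). In shNC the sorted level was higher by 9.61 ± 0.37 on the log2 scale.

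Cd36, the fatty acid and oxidised lipoprotein receptor (chromosome 5, 17781690 to 17888801), had the lowest shFgf21 to shNC ratio of the 10 in the sorted libraries. It was at 95.8, 93.8 and 174 CPM in shNC against 28.7 and 45.4 CPM in shFgf21, so the mean fell short of the shNC mean by a factor of 3.27. The groups did not overlap. The log2 fold change was -1.65 ± 0.32 in edgeR (adjusted p = 0.162) and -1.65 ± 0.48 in DESeq2, which called it (adjusted p = 0.038). With each library left out it ran from -2.03 to -1.30. In tumours Cd36 had 41, 7 and 5 counts in shNC and 4, 7 and 5 in shFgf21, below the low-count filter, and shNC number 1 alone held most of them.

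Thbs1 encodes thrombospondin-1, a matrix protein that binds CD36 and CD47 and activates latent TGF-beta (chromosome 2, 118111876 to 118127133). Sorted shNC libraries were at 276, 477 and 461 CPM and shFgf21 libraries at 244 and 250.1 CPM. The groups did not overlap, though shNC replicate 1 lay close to the shFgf21 pair. The log2 fold change was -0.66 ± 0.23 (adjusted p = 0.354). Without shNC replicate 1 it was -0.88 ± 0.096 and passed (edgeR adjusted p = 0.048). Tumour levels were 165, 32.4 and 60.8 CPM in shNC against 36.2, 36.8 and 25.7 CPM in shFgf21, and these overlapped. The tumour log2 fold change of -1.39 ± 0.53 (adjusted p = 0.744) shrank to -0.45 without shNC number 1. That library also held more endothelial marker CPM (12.2 over 5 markers, against 0.861 to 3.09 in the other 5 tumours) and more Cd36 counts. The part of these cells in the Thbs1 level was not tested.

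Il1b, a pyrogenic cytokine made as a precursor and cleaved by inflammasome caspases (chromosome 2, 129364570 to 129371139), was at 253, 465 and 274 CPM in sorted shNC against 156 and 193 CPM in sorted shFgf21. All shFgf21 values lay below all shNC values, and shNC replicate 2 stood well above the rest. The log2 fold change was -0.87 ± 0.27 (adjusted p = 0.316) and ran from -1.04 to -0.53 with each library left out. The 6 markers of neutrophils, cells known to make Il1b, summed to 74.5, 143 and 86.8 CPM in shNC against 56.4 and 63.1 CPM in shFgf21, the same order of libraries as Il1b. S100a8 was at 21.5 ± 8.56 and 6.54 ± 0.947 CPM, S100a9 at 34.2 ± 16.9 and 5.90 ± 0.921 CPM in sorted shNC against shFgf21 libraries (SD, n = 3 and n = 2). Csf3r, the marker of the list with the highest level, had the opposite sign at 40.7 ± 7.84 and 46.9 ± 6.64 CPM. Cxcr2 (2.13 ± 1.80 and 0.413 ± 0.028 CPM) and Retnlg (2.89 ± 1.88 and 0.033 ± 0.046 CPM) were low. Ly6g, the marker not tested, was nearly absent, with means of 0.065 and 0 CPM. Of the 5 markers tested, 4 had negative and 1 a positive fold change, with a median of -2.29, and none passed in edgeR (4 were lower at an unadjusted p under 0.05, which 11.2% of all genes had in either direction). That median is the value of Cxcr2, 1 of the low markers. The part of neutrophils in the Il1b level was not tested. Tumours had 6, 2 and 7 counts of Il1b in shNC and 0, 0 and 3 in shFgf21.

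Tnf (chromosome 17, 35199381 to 35202007) was at 358, 456 and 389 CPM in sorted shNC against 305 and 346 CPM in sorted shFgf21. The small gap between the groups also depends on CPM leaving out the TMM scaling factors. The log2 fold change of Tnf was -0.25 ± 0.13 (adjusted p = 0.535). Ccl3, a chemokine that draws in monocytes and T cells (chromosome 11, 83647844 to 83649355), varied least among the sorted shNC libraries. It was at 389, 394 and 369 CPM in sorted shNC against 326 and 342 CPM in sorted shFgf21, again without overlap, for a log2 fold change of -0.15 ± 0.09 (adjusted p = 0.589). In tumours Tnf had 13, 2 and 3 counts in shNC and 0, 0 and 5 in shFgf21, and Ccl3 had 20, 4 and 8 against 0, 7 and 4. The highest tumour value of each was in shNC number 1.

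Nos2 was the one gene of the 10 whose sorted libraries lay higher in shFgf21 without overlap. This enzyme makes nitric oxide from arginine (chromosome 11, 78920787 to 78960254). It was at 258, 299 and 335 CPM in shNC against 389 and 362 CPM in shFgf21, a log2 fold change of 0.39 ± 0.12 (adjusted p = 0.333). Within each library the length-scaled ratio of Arg1 to Nos2, 2 enzymes that share arginine as substrate, was 11.4, 10.9 and 13.5 in sorted shNC and 7.32 and 6.65 in sorted shFgf21. That ratio needs no library total, and it was chosen after the values were seen. In tumours Nos2 was at 47.0, 12.6 and 18.5 CPM in shNC against 16.8, 21.03 and 19.8 CPM in shFgf21. The tumour fold change changed sign without shNC number 1, from -0.43 ± 0.44 to 0.35 on the log2 scale.

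Ptgs2, the inducible enzyme of prostaglandin synthesis (chromosome 1, 150100031 to 150108227), was level across the sorted libraries. It was at 878, 982 and 871 CPM in shNC against 935 and 977 CPM in shFgf21, overlapping, with a log2 fold change of 0.12 ± 0.11 (adjusted p = 0.708). The tumours were more variable, at 1102, 318 and 873 CPM in shNC against 1112, 1527 and 1044 CPM in shFgf21. These overlapped, and the log2 fold change of 0.69 ± 0.40 (adjusted p = 0.868) ran from 0.32 to 1.09 with each library left out. Clec4e (chromosome 6, 123281789 to 123289870) was at 35.8, 48.1 and 42.0 CPM in sorted shNC against 47.5 and 49.7 CPM in sorted shFgf21. These overlapped narrowly in CPM, and the log2 fold change of Clec4e was 0.26 ± 0.15 (adjusted p = 0.554). Tumours held 0, 2 and 0 Clec4e counts in shNC and 2, 2 and 0 in shFgf21, at or below the limit that a count of 0 allows.

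Across the sorted knockdown comparison, 7 of the 10 genes had a negative and 3 a positive log2 fold change, with a median of -0.32 against -0.01 over all 16454 genes tested. None of the 10 passed the edgeR quasi-likelihood test at an adjusted p of 0.05, which 0.0790% of all genes did. At an unadjusted p under 0.05 there were 5 (Nos2 higher, and Spp1, Cd36, Il1b and Thbs1 lower), against 11.2% of all genes. In CPM, 7 lay lower in shFgf21 without overlap and 1 higher, against 20.0% and 10.2% of all genes. CPM leaves out the TMM scaling factors of the fits, 1.027, 1.002 and 1.016 in shNC and 0.985 and 0.971 in shFgf21. This places shFgf21 lower in CPM than in the fits. The narrow gaps of Arg1 and Tnf and the overlap of Clec4e depend on this choice. In tumours 5 of the 10 passed the low-count filter, 4 with a negative sign, at a median of -0.43 against -0.01 over 14950 genes. None of the 5 passed, against 0.0334% of all genes, and 2 reached an unadjusted p under 0.05 (Arg1 and Thbs1), against 6.22%. Spp1 and Arg1 were lower without overlap in tumours, against 6.71% of all genes. No difference between the sorted and the tumour fold change passed in edgeR for any of the 10, against 0.00577% of 17327 genes. It was 1.29 ± 0.46 for Arg1, 0.82 ± 0.55 for Nos2, 0.73 ± 0.69 for Thbs1 and -0.56 ± 0.52 for Ptgs2 (log2, SE). At an unadjusted p under 0.05 this difference was found for 2 of them, Spp1 and Arg1, against 4.77%.

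**Figure D3:**
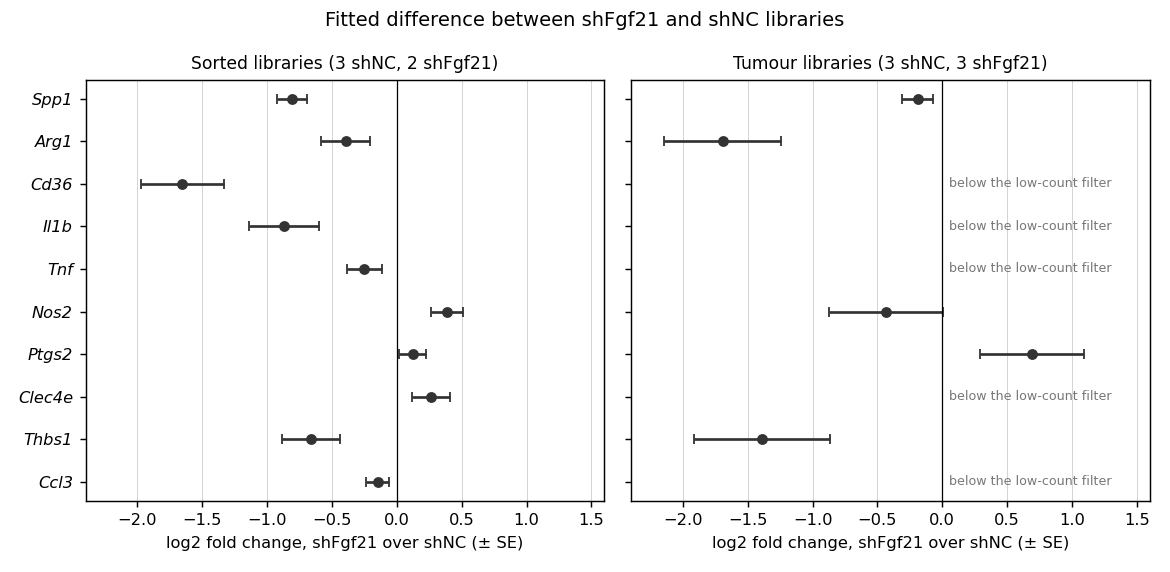
Log2 fold change of shFgf21 over shNC with its SE for each gene, in the sorted libraries (left) and the tumour libraries (right), from edgeR fits over all genes. On the left Cd36 is farthest to the left at -1.65 and Nos2 farthest to the right at 0.39. The other 5 genes had too few counts to be fitted in tumours.

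The macrophage markers had the opposite sign in the sorted libraries. All 12 had a positive log2 fold change, with a median of 0.54, although none passed in edgeR. An unadjusted p under 0.05 was reached by 9 of them and by 11.2% of all genes. Adgre1, which encodes F4/80, was at 182 ± 6.63 CPM in shNC against 302 ± 53.0 CPM in shFgf21, and C1qa, a complement component, at 1025 ± 187 and 1814 ± 385 CPM (SD, n = 3 and n = 2). In bulk RNA, fewer cells of a type and less RNA per cell cannot be told apart. Taken per 1000 macrophage marker counts of the same library, each of the 10 genes was lower in shFgf21 than in shNC without overlap. The same held for 72.9% of the 16454 genes tested, since the mean marker sum was higher by 0.48 on the log2 scale in shFgf21 and this denominator moves every gene down by the same amount. The count of 10 is therefore largely set by the scaling, and nothing is read from it. On this scale Spp1 was at 359 to 386 in shNC libraries and at 138 to 155 in shFgf21 libraries. Ccl3 was at 28.4 to 36.6 and 19.9 to 20.2. The log2 ratio of means became -1.34 for Spp1, -2.18 for Cd36, -1.41 for Il1b and -0.42 for Ptgs2.

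**Figure D4:**
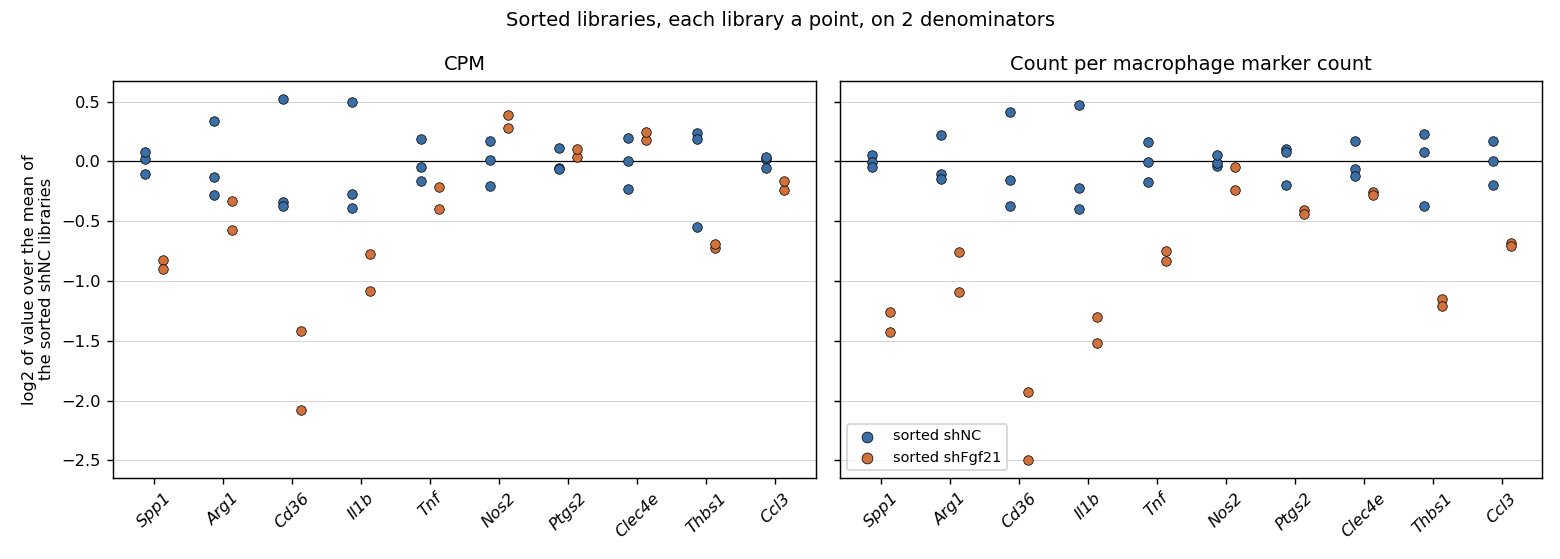
Each sorted library's value for each gene as log2 over the mean of the 3 shNC libraries, in CPM (left) and per summed count of the 12 macrophage markers (right). On the left Nos2, Ptgs2 and Clec4e lie at or above 0 in shFgf21, and on the right all shFgf21 points lie below 0 and below the shNC points, as holds for 72.9% of all genes tested on that scale.

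The 10 hypoxia genes all had negative fold changes in the sorted libraries, with a median of -0.28 and none past the edgeR threshold (3 had an unadjusted p under 0.05, as had 11.2% of all genes). Their sum was 3441, 3324 and 3871 CPM in shNC against 3120 and 2795 CPM in shFgf21. Adm, a vasodilator peptide gene induced by low oxygen, was at 15.2 ± 4.13 CPM in shNC against 5.32 ± 0.537 CPM in shFgf21. The hypoxia sum was also lower in shFgf21 tumours (3093 to 3371 CPM) than in shNC tumours (3636 to 3862 CPM). The 6 monocyte markers summed to 854 to 1138 CPM in sorted shNC against 988 to 1014 CPM in sorted shFgf21, so the groups overlapped. Of these 6, 3 had positive and 3 negative fold changes, with a median of -0.09, and none passed in edgeR (3 were lower at an unadjusted p under 0.05). Chil3 was at 55.5 to 217 CPM in sorted shNC against 12.48 to 13.5 CPM in sorted shFgf21, while F13a1 was at 479 ± 77.2 and 540.2 ± 42.0 CPM and Vcan at 339 ± 29.7 and 380 ± 62.9 CPM (SD, n = 3 and n = 2). Vcan stood higher in tumours than in sorted libraries, with mean CPM of 785 ± 155 (shNC tumours) and 937 ± 142 (shFgf21 tumours; SD, n = 3 each). Ptprc reached at most 1.002 CPM in those tumours. The tumour sum of the 6 monocyte markers ranged over 613 to 905 CPM (shNC) and 779 to 1046 CPM (shFgf21). The sorted monocyte sum, which includes Vcan, is therefore no measure of monocytes alone. The part of oxygen supply or of monocytes in the levels of the 10 genes was not tested.

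Set side by side in control libraries, Cd36, Il1b, Tnf, Clec4e and Ccl3 passed the filter on low counts only through the sorted group, so they had to differ and are not counted. Of the other 5 genes, 4 were higher in sorted cells than in tumours at an adjusted p of 0.05 in edgeR, which 19.1% of 16104 genes were. That share was not limited to genes that pass the filter in tumours, so it is not a like comparison. The exception was Ptgs2, with a log2 fold change of 0.38 ± 0.39. For genes with counts in both kinds of library, the log2 fold change was 1.05 ± 0.12 for Spp1, 2.36 ± 0.57 for Thbs1, 3.65 ± 0.48 for Nos2 and 9.61 ± 0.37 for Arg1. Thbs1 lost its call without sorted shNC replicate 2 (adjusted p = 0.054) or tumour shNC number 6 (adjusted p = 0.063).

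Partner genes from 11 lists (96 entries, of which 94 were tested in sorted libraries and 67 in tumours) gave no call in either knockdown comparison in edgeR as fitted. DESeq2 called 6 higher and 4 lower in sorted libraries, where it called 246 of 16454 genes in all. In tumours it called 5 higher and 1 lower, and 115 of 14950 genes in all. Without shNC replicate 1, edgeR called 1 lower in sorted libraries, which was Cxcl3, among 28 genes called in all. With the tumour number as a block, edgeR called 3 higher and 2 lower in tumours, among 131 genes in all. In sorted libraries 15 were higher and 8 lower at an unadjusted p under 0.05, where 11.2% of all genes had such a p, and in tumours 11 and 5, where 6.22% had one. Between sorted and tumour controls, 67 of the 94 also passed the filter in tumours alone. Of these, 32 were higher and 6 lower in sorted cells past the edgeR threshold, as were 19.1% and 11.9% of all genes tested. Those shares were not limited to genes that pass the filter in tumours, so they are not a like comparison. Of the genes named below as higher in sorted controls, some passed the filter only through the sorted group and so had to differ. These were Itga4, Itga9, Pparg, Msr1, Fabp4, Lpl, Nr1h3, Abcg1, Arg2, Il1a, Il1rn, Il1r2, Casp1 and Ptger2. Also among them were Clec4d, Clec4n, Fcer1g, Card9, Ccl4, Ccr1, Il12b, Il23a, Il10, Osm, Cxcl3 and Trem1. Nothing is read from their calls. Single libraries decided 5 of the control calls named below. Slc7a1 lost its call without sorted shNC replicate 1 or 2 (edgeR adjusted p = 0.058 and 0.075) and Fabp4 without replicate 3 (0.055). Nfkb2 lost it without sorted shNC replicate 2 or 3 or tumour shNC number 6 (0.074, 0.097 and 0.054), as did Nfkbie (0.085, 0.063 and 0.059). Gsdmd lost it without any of these 4 libraries (0.052 to 0.130) and with no low-count filter (0.072). Genes given below with a knockdown fold change were chosen after their values were seen.

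The receptors of osteopontin had a sorted list median of 0.38 over 7 genes, with 3 higher and none lower at an unadjusted p under 0.05 (11.2% of all genes had one). The 3 were Itgb5, Itga4 and Itgav. Cd44 was at 675 ± 64.4 CPM in sorted shNC against 744 ± 15.6 CPM in sorted shFgf21, and the integrin chain Itgb1 at 723 ± 80.3 and 697 ± 22.5 CPM (SD, n = 3 and n = 2). Itgb5 was at 221 ± 8.61 and 288 ± 24.8 CPM, a log2 fold change of 0.43 ± 0.10 (edgeR adjusted p = 0.209, DESeq2 0.011), and Itgav at 55.9 ± 6.76 and 96.0 ± 57.7 CPM, with its 2 shFgf21 libraries far apart. Itgb3, Itga4 and Itga9 were higher in sorted than in tumour controls. Among partners of thrombospondin-1 and CD36, with a median of 0.09 over 6 genes, the same held for Sirpa, Tgfb1 and Lyn. Cd47, a thrombospondin-1 receptor, was at 246 ± 19.5 and 230 ± 14.4 CPM, and Sirpa, the receptor of CD47, at 420 ± 54.4 and 507 ± 39.5 CPM.

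Genes of lipid uptake and storage did not all share the direction of Cd36 in the sorted libraries, with a median of 0.05 over 10 genes. Plin2, which coats lipid droplets, was at 459 ± 72.3 CPM in shNC against 286 ± 26.6 CPM in shFgf21 (SD, n = 3 and n = 2), a log2 fold change of -0.63 ± 0.14 (edgeR adjusted p = 0.226). Lpl, lipoprotein lipase, was at 43.9 ± 10.7 and 17.97 ± 4.47 CPM, a log2 fold change of -1.23 ± 0.24 (edgeR adjusted p = 0.162). DESeq2 called both (adjusted p = 0.011 and 2.649e-04). The scavenger receptor Msr1 was level at 410 ± 51.0 and 416 ± 32.5 CPM, as was the cholesterol exporter Abca1 at 247 ± 39.4 and 244 ± 10.01 CPM. Higher in sorted than in tumour controls were Pparg, Msr1, Fabp4, Fabp5, Lpl, Plin2, Nr1h3, Abca1 and Abcg1. Around arginase, Odc1, which uses the ornithine that arginase makes, was at 336 ± 37.4 and 467 ± 56.7 CPM, a log2 fold change of 0.53 ± 0.13 (edgeR adjusted p = 0.257, DESeq2 0.036). The arginine transporter Slc7a2 was at 234 ± 22.7 and 205 ± 31.8 CPM in sorted libraries and at 5.10 ± 3.47 and 0.552 ± 0.172 CPM in tumours. The tumour log2 fold change of Slc7a2 was -3.17 ± 0.60 (edgeR adjusted p = 0.297, DESeq2 8.056e-05). Arg2, Slc7a2, Ass1, Asl and Gch1 were higher and Slc7a1 lower in sorted than in tumour controls.

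Around interleukin-1, the list median in sorted libraries was -0.01 over 10 genes. Il1a, the second ligand of the interleukin-1 receptor, was at 211 ± 13.8 CPM in shNC against 137 ± 6.05 CPM in shFgf21 (SD, n = 3 and n = 2), a log2 fold change of -0.57 ± 0.10 (edgeR adjusted p = 0.130, DESeq2 2.347e-04). Nlrp3, the inflammasome sensor, had the opposite sign at 141 ± 9.91 and 223 ± 76.3 CPM, or 0.72 ± 0.19 on the log2 scale (edgeR adjusted p = 0.282, DESeq2 0.042). It was 0.31 without shFgf21 replicate 2 and 1.04 without shFgf21 replicate 1. The antagonist Il1rn was at 113 ± 21.9 and 113 ± 34.8 CPM. Sorted controls were higher than tumour controls in Il1a, Il1rn, Il1r2, Il18, Nlrp3, Pycard, Casp1 and Gsdmd, and lower in the receptor chains Il1r1 and Il1rap.

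Tumour necrosis factor signalling and NF-kB genes had sorted medians of 0.12 over 9 genes, 8 of them positive, and 0.20 over 12 genes, 9 of them positive. None passed in edgeR, and 1 and 3 were higher at an unadjusted p under 0.05, which 11.2% of all genes had. These were Adam17, which sheds membrane-bound TNF, at 116 ± 6.71 CPM in shNC against 139 ± 3.04 CPM in shFgf21, Nfkb2 at 227 ± 19.2 and 293 ± 3.04 CPM, Nfkbib at 86.3 ± 11.4 and 110.4 ± 2.59 CPM, and Nfkbie at 56.4 ± 8.21 and 69.9 ± 7.86 CPM (SD, n = 3 and n = 2). Tnfaip3, the A20 feedback inhibitor, was at 1399 ± 135 CPM in shNC against 1398 ± 27.0 CPM in shFgf21, and Nfkbia, an inhibitor of NF-kB, at 1824 ± 6.54 and 1892 ± 218 CPM (SD, n = 3 and n = 2). In tumours the shFgf21 means of both stood above the shNC means. Tnfaip3 was at 235 ± 92.1 CPM in shNC tumours against 482 ± 85.0 CPM, a log2 fold change of 1.05 ± 0.29 (edgeR adjusted p = 0.570, DESeq2 0.027). Nfkbia was at 1522 ± 212 CPM in shNC tumours against 2315 ± 284 CPM, a log2 fold change of 0.63 ± 0.16 (edgeR adjusted p = 0.504, DESeq2 0.049; n = 3 in each group, errors of levels as SD). Tnfrsf1a, Tnfrsf1b, Adam17, Birc3, Tnfaip3, Nfkbie, Nfkbiz and Ikbkb were higher and Nfkb2 was lower in sorted than in tumour controls.

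Prostaglandin synthesis and receptor genes other than Ptgs2 stood below Ptgs2 in the sorted libraries and together had a median of 0.02 over 8 genes. Ptgs1, the constitutive enzyme, was at 84.2 ± 2.72 and 77.8 ± 0.536 CPM in sorted shNC against shFgf21 (SD, n = 3 and n = 2), and Ptges, which makes prostaglandin E2 from the product of COX-2, at 89.0 ± 8.05 and 70.4 ± 5.41 CPM. Both were lower in sorted than in tumour controls, where they stood at 164 ± 16.0 and 202 ± 28.6 CPM (SD, n = 3). The receptors Ptger2 and Ptger4 were higher in sorted controls. In the Mincle pathway, with a median of 0.10 over 7 genes, the signalling chain Fcer1g was at 428 ± 28.3 and 472 ± 36.3 CPM and the kinase Syk at 194 ± 18.8 and 198 ± 13.5 CPM. The lectin receptors Clec4d and Clec4n, with Fcer1g, Syk, Card9 and Malt1, were higher in sorted than in tumour controls.

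The chemokines most like Ccl3 differed in sign among themselves. In sorted libraries Ccl4 was at 372 ± 21.6 CPM in shNC against 453 ± 66.5 CPM in shFgf21 and Ccl5 at 69.2 ± 10.6 and 119 ± 11.5 CPM (SD, n = 3 and n = 2). Ccl5 had a log2 fold change of 0.83 ± 0.14 (edgeR adjusted p = 0.130, DESeq2 3.009e-04). Ccl6 and Ccl9 lay on the other side at 1233 ± 253 and 913 ± 63.9 CPM and at 551 ± 69.4 and 411 ± 39.1 CPM. The neutrophil attractant Cxcl3 was at 127 ± 40.7 and 50.7 ± 2.52 CPM, a log2 fold change of -1.28 ± 0.27 (edgeR adjusted p = 0.201) that passed without shNC replicate 1 (adjusted p = 0.012) and in DESeq2 (adjusted p = 3.804e-04). The related Cxcl2 was at 1259 ± 228 and 1297 ± 149 CPM. In tumours the monocyte attractant Ccl2 was at 589 ± 149 CPM in shNC against 1463 ± 366 CPM in shFgf21 (n = 3 each, SD). Its log2 fold change was 1.33 ± 0.26 (edgeR adjusted p = 0.297, DESeq2 1.827e-04). Cxcl1 was at 1262 ± 456 and 2141 ± 298 CPM in the same comparison. The list of other inflammatory cytokines had a tumour median of 0.85 over 5 tested genes. The CCL3-type list had 0.86 over 3. At an unadjusted edgeR p under 0.05, 4 and 2 of them were higher and 0 and 1 lower, against 6.22% of all genes. None passed in edgeR. Higher in sorted than in tumour controls were Ccl4, Ccl5, Ccl6, Ccl9, Ccr1, Il12b, Il23a, Il10, Osm, Cxcl2, Cxcl3, Ccl2, Ccl7 and Trem1.

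**Figure D5:**
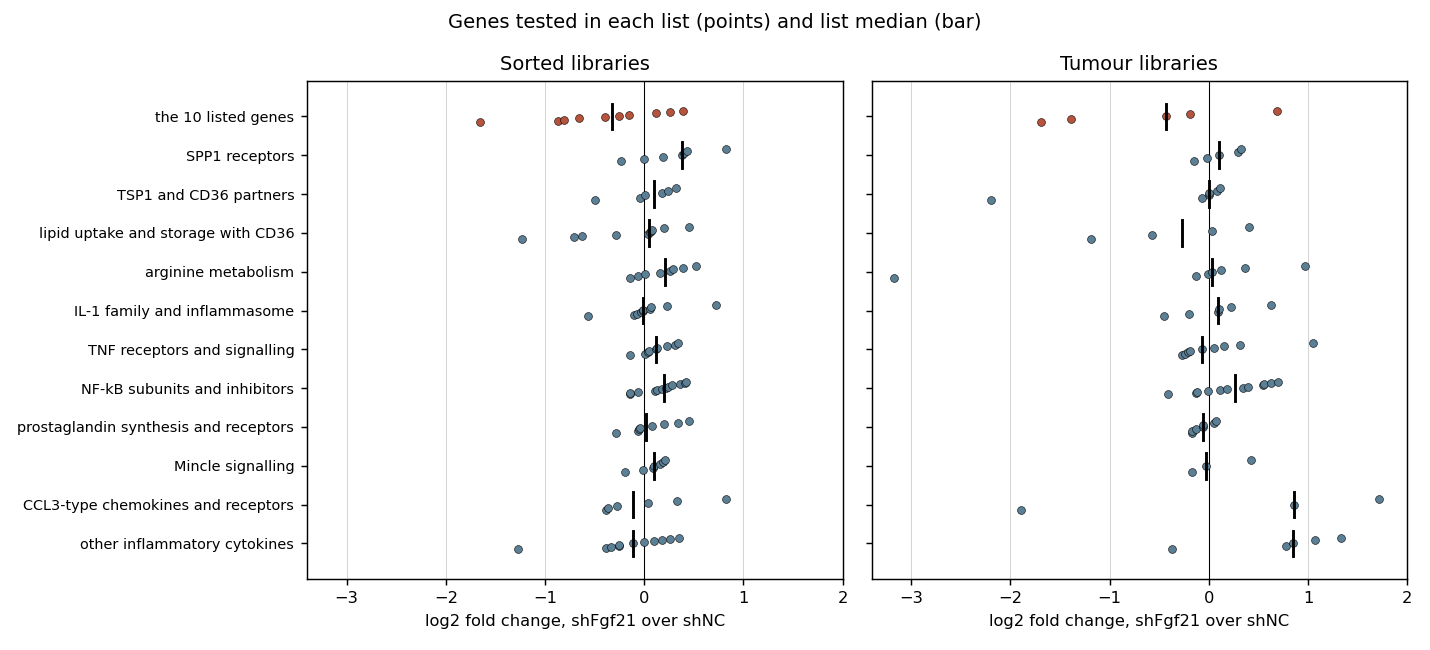
Log2 fold change of shFgf21 over shNC for each tested gene (points) in the 10 genes and 11 partner lists, with the list median as a bar, in sorted libraries (left) and tumours (right). The 10 genes have medians of -0.32 and -0.43. The medians of the partner lists lie at -0.12 to 0.38 in the sorted libraries and at -0.27 to 0.86 in tumours.

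Genes whose levels tracked 4 of the 10 most closely over the 5 sorted libraries were named by the root mean square difference of centred log2 CPM, among 9686 genes with a mean of at least 10 CPM. Predicted Gm and Rik genes and the 10 genes themselves were left out of the search. Nearest to Spp1 were Zfp865 (0.0614), Btbd2 (0.0667) and Rasa3 (0.0924). Zfp865 was at 35.2, 35.5 and 38.4 CPM in shNC against 19.3 and 18.04 CPM in shFgf21. Nearest to Arg1 were Abcg1 (0.0669), Rffl (0.0746) and Chchd5 (0.0749), and nearest to Tnf were Nlrx1 (0.0316), Coro2a (0.0438) and Cox18 (0.0469). Nearest to Il1b were Areg (0.146), Tuba4a (0.196) and Paqr7 (0.198), at a greater distance than for the other 3. Il1b itself also varied most, with a root mean square of centred log2 CPM of 0.519. This was 0.4 for Spp1, 0.285 for Arg1 and 0.184 for Tnf. Areg, an EGF receptor ligand, was at 15.5, 23.8 and 13.3 CPM in shNC against 9.31 and 11.99 CPM in shFgf21. These distances describe 5 libraries and carry no p-value.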

How the data were processed

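Mouse RNA was measured by bulk sequencing in 11 libraries. The values deposited by the authors are whole-number gene counts and, beside them, FPKM. Per the submitters' processing notes the genome was mm10. Aligner, counting program, annotation and strandedness stand in none of the sources used here, so overlapping genes cannot be separated. The deposited FPKM values equal count over library total and a fixed gene length (spread up to 8.444e-04% over 9655 genes). That length exceeded the summed exon length of GENCODE M21 in 87.6% of genes, so levels between genes used CPM per kilobase of M21 exons instead.

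The 10 genes and all gene lists were chosen with earlier results of these data known. Named were the 10 genes, up to 4 genes per list by sorted level, every list gene past the threshold except 1 that is not reported here, and others said to be chosen after their values were seen. CPM is count per 1000000 listed counts. In R 4.3.3, edgeR 4.0.16 (filterByExpr, TMM, quasi-likelihood F-test, Benjamini-Hochberg over all genes, threshold 0.05) compared shFgf21 with shNC within each kind of library, sorted with tumour controls, and the difference of the knockdown effects in all 4 groups. The SE is the log2 fold change over the square root of F. Alternatives were RLE factors, no low-count filter, DESeq2 1.42.0, 1 fit of all groups, each library left out, the tumour number as a block, and the macrophage marker list as denominator. On simulated counts with 200 changed genes of at least 10 CPM, 87% of 2-fold changes were recovered for the sorted comparison (16140 genes, 11.4% of calls false) and 72% for tumours (14704 genes, 7.57% false). Those counts were drawn from the fitted dispersions with no other spread. The shares therefore check the procedure only, and a gene not called in the real libraries is not shown to be unchanged.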

Additional observations from a re-analysis of the deposited data

How the results depend on the processing

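In the sorted comparison 13 genes passed in all, against 1 with no low-count filter, 246 with DESeq2, 1 in the fit of all 4 groups and 0 to 34 with single libraries left out (28 without shNC replicate 1, 34 without shNC replicate 3, 1 without shFgf21 replicate 1 and 0 without shFgf21 replicate 2). Of the 10 genes, 0 passed, against 2 with DESeq2 (Spp1, Cd36) and 0 to 1 with single libraries left out. In tumours 5 genes passed, against 115 with DESeq2, 26 in the fit of all 4 groups and 0 to 8 with single libraries left out. The tumour numbers did not pair the samples (deviations correlated at 0.165 for number 1 and -0.153 for number 2). With the number as a block 131 genes passed, 1 of the 10 among them (Arg1, -2.35 ± 0.66, edgeR adjusted p = 0.044). Only numbers 1 and 2 occur in both groups, so the block fit drew its contrast from those libraries alone. It left little from which to estimate the spread, and nothing is read from its calls. The sorted libraries share no number in their titles. Between sorted and tumour controls 4995 of 16104 genes passed (3465 to 5581 with single libraries left out). Of the 10 genes, those that passed the filter only through the sorted group are not counted. Of the other 5, 4 passed as fitted. For the difference of the knockdown effects 1 gene passed, against 4 with no filter, 33 with DESeq2 and 0 to 4 with single libraries left out, and 1 of the 10 passed with DESeq2 (Spp1). The sign changed in tumours for Nos2 (0.3539, adjusted p = 0.600; -0.7702 to 0.3539 with single libraries left out) and in the difference of effects for Thbs1 (-0.1923, adjusted p = 0.964; -0.1923 to 1.133), both in edgeR without tumour shNC number 1. The causes were not tested. With 2 shFgf21 sorted libraries, leaving out 1 assumes the other to vary like the shNC group. Arg1, Cd36, Il1b, Tnf, Clec4e and Ccl3 had at most 52 counts in a tumour library, which limits any difference there.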

Other observations

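Summed over the 10 genes, sorted libraries held 8131, 9346 and 9863 CPM in shNC and 6367 and 6150 CPM in shFgf21, which rests mainly on Spp1 and Arg1. Tumours held 3544, 2738 and 3454 CPM in shNC and 3045, 3787 and 3126 CPM in shFgf21, mainly from Spp1 and Ptgs2, and these overlapped. Immediate early genes, which respond within minutes to stress and handling, summed to 7502, 13993 and 15973 CPM in shNC tumours 1, 2 and 6 and to 9781, 13132 and 12747 CPM in shFgf21 tumours 1, 2 and 3. The lowest sum was in shNC number 1, the library with the highest Thbs1, Nos2, Cd36, Tnf and Ccl3 among tumours.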
